A study of Mus musculus with 8 samples.

Results

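Endothelial genes and leukocyte adhesion molecules were followed through bulk RNA-seq of MC38 tumors as a fixed set of 10 genes. The set held 4 adhesion molecules of inflamed vessels (Sele, Selp, Icam1 and Vcam1) and 6 endothelial identity genes (Pecam1, Cdh5, Kdr, Tek, Vwf and Emcn). They were listed by name, with no threshold on a measured value but with earlier results of these data known, from the 24421 genes of the count table, and all 10 were among the 14468 genes that passed the filter on low counts. MC38 cells are a line derived from a mouse colon carcinoma. Kaede is a protein that switches from green to red fluorescence under violet light. All 8 mice were 9-week-old B6 (C57BL/6) females carrying the Kaede transgene, each given 250000 MC38 cells. In the photoconverted group (4 tumors), violet light of 405 nm fell on tumors about 5 mm across for 3 min on day 10, and in the control group (4 tumors) no light was given. Both groups were collected 5 h after that exposure, so the comparison asks whether the labeling light itself altered the tumor transcriptome. The tumors came from a single transplanted cell line and were sequenced whole, without sorting of vessels, and the promoter driving Kaede is not given in the sources used here.

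Leukocytes leave the blood in steps. Selectins on the vessel wall, E-selectin (Sele) and P-selectin (Selp), slow them into rolling, and ICAM-1 and VCAM-1 then hold them through leukocyte integrins before they pass the junctions between endothelial cells. P-selectin and von Willebrand factor are stored ready-made in Weibel-Palade bodies and also in platelets, E-selectin is made anew when inflammatory signals reach the endothelium, and ICAM-1 and VCAM-1 are also carried by other cells such as myeloid and stromal cells. Levels are given as CPM, read counts scaled to a common library size by the TMM method, and tumors are numbered by their replicate labels.

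The libraries differed in depth and in composition. Total counts ran from 12576615 to 35844417 per tumor. Rn45s, the ribosomal RNA precursor gene, took between 2.70% and 9.65% of counts in 5 tumors (photoconverted 1, 2 and 3 and control 1 and 3) and between 21.9% and 35.7% in the other 3. Across all genes tested, 0% (0 of 14468) passed an adjusted p of 0.05 by the quasi-likelihood test of edgeR. Before adjustment, 2.23% (322) had an unadjusted p under 0.05, with 1.65% higher and 0.574% lower in photoconverted tumors. With the replicate number as a block, 0% again passed the adjusted threshold and 6.01% (869) had an unadjusted p under 0.05, 4.38% higher and 1.63% lower. Among the 10 genes, 0 passed in either fit, 0 had an unadjusted p under 0.05 without the block, and 3 (Sele, Selp and Pecam1) had one with it.

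Endothelial RNA was present in every tumor, and the 10 genes spanned a wide range of levels. Exon length was the union of all annotated exons of a gene, from 2.91 kb for Sele to 16.1 kb for Vwf, and the order of genes depends on this choice. Per kilobase of exon, Vcam1 was highest with a median of 15.8 CPM per kb over the 8 tumors, followed by Cdh5 (VE-cadherin) with 9.84 CPM per kb. Pecam1 (5.48 CPM per kb) and Icam1 (5.05 CPM per kb) came next and could not be ordered, since Pecam1 was above Icam1 in 5 of 8 tumors. Kdr, which encodes VEGF receptor 2, had 2.90 CPM per kb and lay below Icam1 and above Tek in 8 of 8 tumors. The remaining genes had medians of 0.994 CPM per kb for Tek, 0.892 for Emcn, 0.876 for Selp, 0.569 for Vwf and 0.562 for Sele, and each was above the next in only 4 to 6 of 8 tumors.

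Sele and Selp had the widest differences of the 10 genes, with group means 3.02-fold apart for Sele and 2.50-fold apart for Selp, higher in photoconverted tumors. Sele, which lies at chr1:164048234-164057677 on the plus strand (GRCm38), had 2.23, 3.22, 6.30 and 0.547 CPM in photoconverted tumors 1 to 4 and 0.485, 1.50, 1.78 and 0.305 CPM in control tumors 1 to 4. Photoconverted tumors 1, 2 and 3 were above every control tumor, whereas photoconverted tumor 4 was below control tumors 2 and 3, so the groups overlapped. These values rested on few reads, from 5 counts in control tumor 4 to 160 counts in photoconverted tumor 3. The means were 3.07 ± 2.42 CPM and 1.02 ± 0.730 CPM (SD, n = 4 each). The fitted log2 fold change of 1.63 (SE 0.73, 95% confidence interval -0.01 to 3.27) was the 51st highest of all genes tested and did not pass the test (adjusted p = 0.999, edgeR). In these bulk libraries fewer cells of a type and less RNA per cell cannot be told apart, for Sele as for every gene below.

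Selp (chr1:164115264-164150026, plus strand, GRCm38) showed the same order of tumors within the photoconverted group, at a higher level. It had 5.30, 6.82, 14.0 and 1.09 CPM in photoconverted tumors 1 to 4 and 2.11, 4.07, 3.66 and 1.04 CPM in control tumors 1 to 4. Again photoconverted tumors 1, 2 and 3 were above all controls and photoconverted tumor 4 was among the lowest, next to control tumor 4. The means were 6.81 ± 5.39 CPM and 2.72 ± 1.40 CPM (SD, n = 4 each), with a log2 fold change of 1.35 (SE 0.66, 95% confidence interval -0.14 to 2.84) that ranked 89th and did not pass (adjusted p = 0.999, edgeR). Exact permutation tests over the 70 arrangements of the tumors (two-sided, smallest possible p = 0.0286) gave p = 0.143 for Sele and p = 0.286 for Selp. A log2 fold change of at least 1 was found for 2 of the 10 genes, these 2, and for 1.49% of all genes tested.

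**Figure D1:**
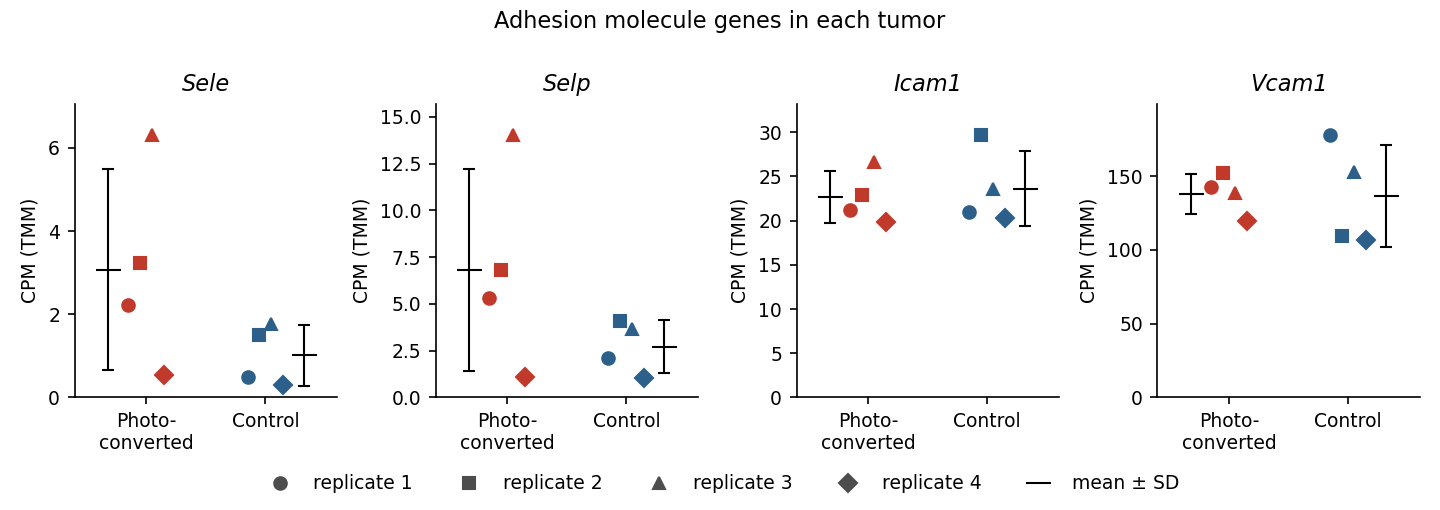
Level of the 4 adhesion molecule genes in CPM (TMM-scaled, axes from 0) in each photoconverted and control tumor, with symbols for the replicate number and bars for mean ± SD (n = 4). For Sele and Selp, photoconverted tumors 1, 2 and 3 lie above every control tumor and photoconverted tumor 4 does not, while for Icam1 and Vcam1 the groups lie across each other.

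The tumors of the pair numbered 4 were lowest in both groups for both selectins, and the difference was steadier within numbers than between groups. Sele was 4.59-fold, 2.15-fold, 3.55-fold and 1.79-fold higher in the photoconverted tumor of pairs 1 to 4. Selp was 2.51-fold, 1.68-fold and 3.83-fold higher in pairs 1 to 3 and 1.05-fold higher in pair 4, where both tumors held 16 or 17 counts. Being higher in 4 of 4 pairs applied to 3 of the 10 genes (Sele, Selp and Pecam1) and to 7.2% of all genes tested. With the replicate number as a block, Sele had a log2 fold change of 1.62 (SE 0.31, unadjusted p = 0.000694, adjusted p = 0.415, edgeR) and Selp one of 1.16 (SE 0.29, unadjusted p = 0.00414, adjusted p = 0.564, edgeR). An exact sign-flip permutation test of the 4 pairs gave p = 0.125 for both, the smallest p that 4 pairs allow. Photoconverted tumor 3 carried much of the group difference: without it the log2 fold change was 1.03 for Sele and 0.73 for Selp.

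The 2 selectin genes are neighbors. Sele and Selp lie on the plus strand of chromosome 1 within 101.8 kb (GENCODE M21, GRCm38), with F5, the gene of coagulation factor V, 1.811 kb after Selp. F5, looked up after its values were seen, had 6.38, 5.53, 10.4 and 2.53 CPM in photoconverted tumors and 4.00, 3.85, 2.95 and 1.59 CPM in control tumors. Its log2 fold change of 1.01 (SE 0.43, unadjusted p = 0.0417, adjusted p = 0.999, edgeR) went the same way in 4 of 4 pairs. The noncoding genes Gm16548 and Gm16587 overlap Selp, and Gm47079 overlaps the end of Icam1, each on the other strand. Since no strand setting of the counting is given in the sources used here, reads in these overlaps could belong to either gene. Next to Icam1 on chromosome 9, the neighboring genes Icam4 and Icam5 had log2 fold changes of -0.03 (SE 0.39) and -0.02 (SE 0.37).

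The start regions of the selectin genes and of Icam1 are shown because Sele and Selp had the widest group differences of the 10 genes and Icam1 did not. Each line runs 5′ to 3′ on the plus strand from 250 bases before to 50 bases from the start site (RefSeq, GRCm38.p6), at chr1:164047984-164048283 for Sele, chr1:164115014-164115313 for Selp and chr9:21015690-21015989 for Icam1. Capitals mark matches to GGANNTTCC, the outer letters of many Rel-type (NF-kB family) sites, to the AP-1 motif TGANTCA and to the TATA box motif TATAAA, searched on both strands.
Sele: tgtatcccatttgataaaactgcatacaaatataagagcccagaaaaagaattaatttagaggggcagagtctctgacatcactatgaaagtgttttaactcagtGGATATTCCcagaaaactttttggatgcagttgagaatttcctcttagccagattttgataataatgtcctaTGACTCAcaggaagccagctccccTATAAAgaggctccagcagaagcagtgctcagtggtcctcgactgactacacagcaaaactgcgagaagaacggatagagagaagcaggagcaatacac
Selp: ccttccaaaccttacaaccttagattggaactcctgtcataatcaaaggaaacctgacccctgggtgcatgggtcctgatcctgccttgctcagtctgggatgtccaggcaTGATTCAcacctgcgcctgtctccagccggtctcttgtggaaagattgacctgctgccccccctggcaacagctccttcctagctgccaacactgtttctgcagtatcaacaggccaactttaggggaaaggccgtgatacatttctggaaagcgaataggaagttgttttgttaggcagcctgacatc
Icam1: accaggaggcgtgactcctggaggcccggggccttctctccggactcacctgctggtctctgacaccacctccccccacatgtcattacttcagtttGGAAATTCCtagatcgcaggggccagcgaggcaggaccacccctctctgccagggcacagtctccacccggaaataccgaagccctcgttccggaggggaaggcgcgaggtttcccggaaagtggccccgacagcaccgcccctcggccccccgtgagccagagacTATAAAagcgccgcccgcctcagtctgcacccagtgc

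The Sele window held GGATATTCC at -145 to -137 from the start site, TGACTCA at -73 to -67 and TATAAA at -49 to -44, and directly after TGACTCA the ETS motif CAGGAAG at -66 to -60. The Selp window held TGATTCA at -139 to -133 and none of the other motifs searched. The Icam1 window held GGAAATTCC at -153 to -145, where each of the strands matches GGANNTTCC, and TATAAA at 14 to 19. Of 32851 RefSeq promoter windows of the same length, 4.26% held GGANNTTCC (letters chosen after these windows were read), 7.81% TGANTCA, 13.6% TATAAA and 13.3% CAGGAAG. Another motif, the consensus named NF-kB, was held by 4.51% of windows and, among the 6 of 10 genes with a window in the table (Sele, Selp, Icam1, Kdr, Tek and Emcn), by that of Kdr alone, at -74 to -65. GENCODE places the start of Icam1 downstream of its TATAAA match, and the RefSeq record of Sele begins at 164039614, upstream of the start site used here, so positions depend on the start chosen. These matches describe letters in a window and say nothing of binding in these tumors.

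Icam1 and Vcam1, the ligands of leukocyte integrins, showed no such difference. Icam1 (chr9:21015985-21028817, plus strand) had 21.2, 22.9, 26.6 and 19.8 CPM in photoconverted tumors 1 to 4 and 20.9, 29.7, 23.6 and 20.3 CPM in control tumors 1 to 4. The highest and the lowest of the 8 tumors differed by less than 2-fold, and the groups overlapped throughout. The means were 22.6 ± 2.93 CPM and 23.6 ± 4.26 CPM (SD, n = 4 each), with a log2 fold change of -0.06 (SE 0.16, 95% confidence interval -0.42 to 0.30, adjusted p = 0.999, edgeR) and p = 0.714 in the exact permutation test. Vcam1 (chr3:116109949-116129688, minus strand) was the most abundant of the 4, with 142, 152, 139 and 120 CPM in photoconverted tumors and 178, 110, 153 and 107 CPM in control tumors. The photoconverted values lay inside the range of the controls. The means were 138 ± 13.6 CPM and 137 ± 34.6 CPM (SD, n = 4 each), and the log2 fold change of Vcam1 was 0.01 (SE 0.18, 95% confidence interval -0.39 to 0.42, adjusted p = 0.999, edgeR). Both intervals excluded a doubling or a halving of the fitted level, whereas those of Sele and Selp did not exclude 0. The sign for Vcam1 turned when control tumor 4 was left out (-0.090), and that for Icam1 when control tumor 2 was left out (0.065).

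**Figure D2:**
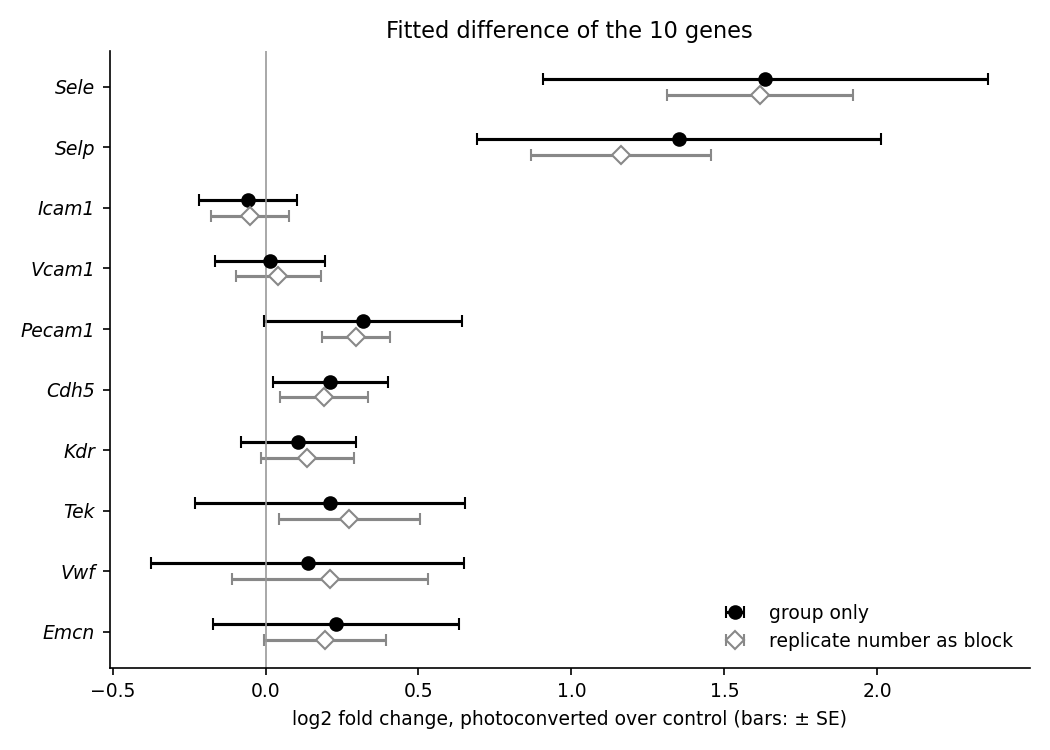
Log2 fold change of photoconverted over control tumors for the 10 genes from edgeR, with bars of ± SE, fitted on the group only (filled circles) and with the replicate number as a block (open diamonds). Sele and Selp stand at 1.63 and 1.35 in the first fit with SEs above 0.6, and the other 8 genes lie between -0.06 and 0.32.

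The selectins were also set against endothelial counts of the same tumor, a ratio that no scaling between libraries can move. Per 100 counts of Cdh5, an adherens junction gene of endothelial cells, Sele had 4.23, 7.95, 11 and 1.69 counts in photoconverted tumors 1 to 4 and 1.40, 3.55, 3.92 and 0.846 counts in control tumors 1 to 4. Selp had 10.1, 16.8, 24.5 and 3.38 counts in photoconverted tumors and 6.11, 9.64, 8.08 and 2.88 counts in control tumors. In both, the photoconverted tumor was higher in 4 of 4 pairs while the groups still overlapped through photoconverted tumor 4. Per 100 Pecam1 counts, Sele was higher in 4 of 4 pairs and Selp in 3 of 4, and photoconverted tumor 1 (4.63 for Sele and 11 for Selp) lay below control tumor 2 (4.71 and 12.8). With the mean score of 25 other endothelial genes as a covariate, Sele kept a log2 fold change of 1.42 (unadjusted p = 0.0120, adjusted p = 1.00, edgeR) and Selp one of 1.03 (unadjusted p = 0.0386, adjusted p = 1.00, edgeR). For Icam1 the mean was 51.1 ± 9.52 counts per 100 Cdh5 counts in photoconverted tumors and 59.8 ± 7.81 in control tumors, and for Vcam1 it was 314 ± 67.9 and 352 ± 113 (SD, n = 4 each).

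**Figure D3:**
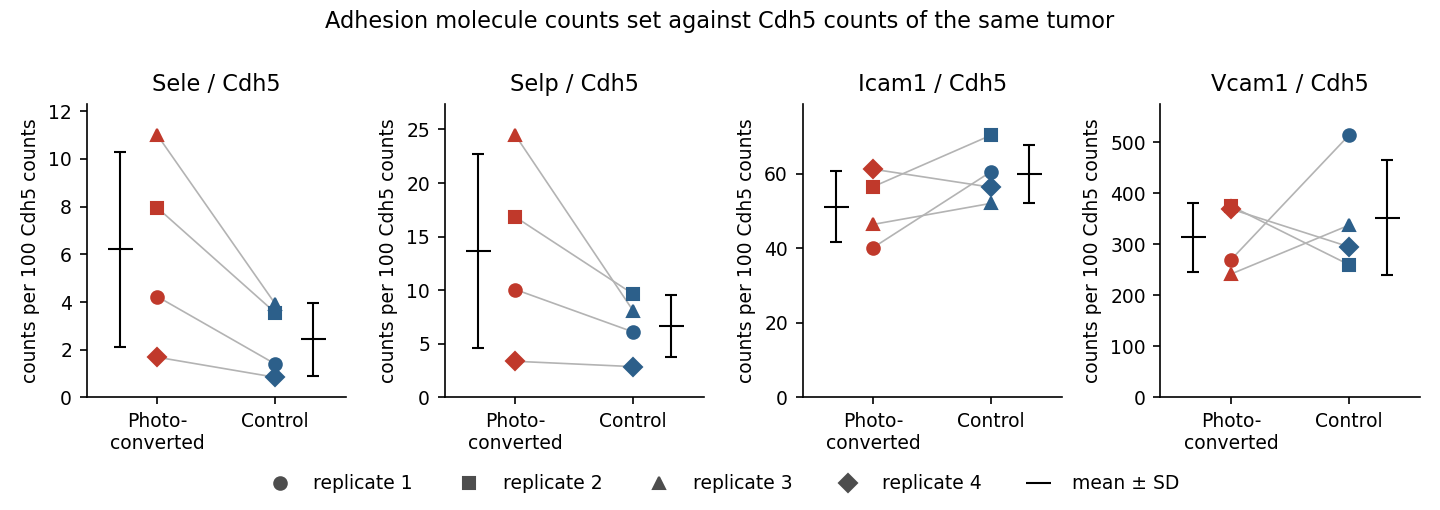
Counts of each adhesion molecule gene per 100 Cdh5 counts of the same tumor (axes from 0), with gray lines joining tumors of the same replicate number and bars for mean ± SD (n = 4). The lines fall from photoconverted to control in 4 of 4 pairs for Sele and Selp, against 1 of 4 for Icam1 and 2 of 4 for Vcam1.

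Among photoconverted tumors, Sele and Selp counts also kept a fairly fixed proportion to each other, though tumor 4 held only 8 Sele and 16 Selp counts. Sele had 42.0, 47.2, 44.9 and 50.0 counts per 100 Selp counts in photoconverted tumors 1 to 4, although Selp itself spanned more than 10-fold among them. In control tumors 1 to 4 the ratio was more spread, at 23.0, 36.8, 48.5 and 29.4.

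None of the 6 identity genes passed the test in edgeR. All 6 had a positive log2 fold change, as did 46.8% of all genes tested. Their median was 0.21, beside -0.01 over all genes tested. The 95% confidence intervals ran from -0.78 to 1.20 for Tek, -1.01 to 1.29 for Vwf and -0.68 to 1.14 for Emcn. A doubling was thus not excluded for these genes. Pecam1, which encodes the junctional molecule PECAM-1 (chr11:106654217-106750628, minus strand), had 48.1, 34.7, 57.2 and 21.7 CPM in photoconverted tumors and 33.6, 31.8, 45.0 and 19.3 CPM in control tumors. The groups overlapped, and the photoconverted tumor was the higher one in 4 of 4 pairs, by 1.09-fold to 1.43-fold. Its log2 fold change was 0.32 (SE 0.32, 95% confidence interval -0.41 to 1.05, adjusted p = 0.999, edgeR), and 0.30 with the block (SE 0.11, unadjusted p = 0.0288, adjusted p = 0.786, edgeR). Cdh5 (chr8:104101625-104144511, plus strand) had 52.7, 40.5, 57.3 and 32.4 CPM against 34.6, 42.2, 45.3 and 36.1 CPM in control tumors, with the photoconverted tumor higher in 2 of 4 pairs. Its log2 fold change was 0.21 (SE 0.19, 95% confidence interval -0.21 to 0.64, adjusted p = 0.999, edgeR).

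The receptors Kdr and Tek did not pass the test. Kdr (chr5:75932827-75978458, minus strand) was the most even gene among photoconverted tumors, with 24.6, 27.7, 26.4 and 25.9 CPM, and had 22.5, 29.1, 29.3 and 16.3 CPM in control tumors. Every photoconverted tumor lay within the control range, and the log2 fold change was 0.11 (SE 0.19, adjusted p = 0.999, edgeR). Tek, which encodes the angiopoietin receptor TIE2 (chr4:94739289-94874976, plus strand), had 6.70, 4.67, 8.23 and 2.87 CPM in photoconverted tumors and 8.54, 3.96, 4.69 and 2.08 CPM in control tumors. Its highest and its lowest value were both in control tumors, and the log2 fold change of 0.21 (SE 0.44, adjusted p = 0.999, edgeR) became -0.040 without control tumor 4 and 0.66 without control tumor 1.

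Vwf and Emcn were likewise spread within the groups. Vwf, the gene of von Willebrand factor (chr6:125546774-125686679, plus strand), had 9.93, 10.4, 18.1 and 4.58 CPM in photoconverted tumors and 6.40, 20.6, 8.35 and 4.64 CPM in control tumors. Control tumor 2 was the highest of all 8 tumors, and the log2 fold change of 0.14 (SE 0.51, adjusted p = 0.999, edgeR) was -0.23 without photoconverted tumor 3 and 0.73 without control tumor 2. Within each group the tumors ranked the same for Vwf as for Selp, whose product shares its storage granule, but for Vwf it was a control tumor that led. Emcn, which encodes the sialomucin endomucin of veins and capillaries (chr3:137341067-137432185, plus strand), had 7.48, 3.88, 7.68 and 2.46 CPM in photoconverted tumors and 5.77, 3.00, 6.26 and 3.17 CPM in control tumors. Tumors numbered 1 and 3 were the 4 highest regardless of group, and the log2 fold change was 0.23 (SE 0.40, adjusted p = 0.999, edgeR).

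**Figure D4:**
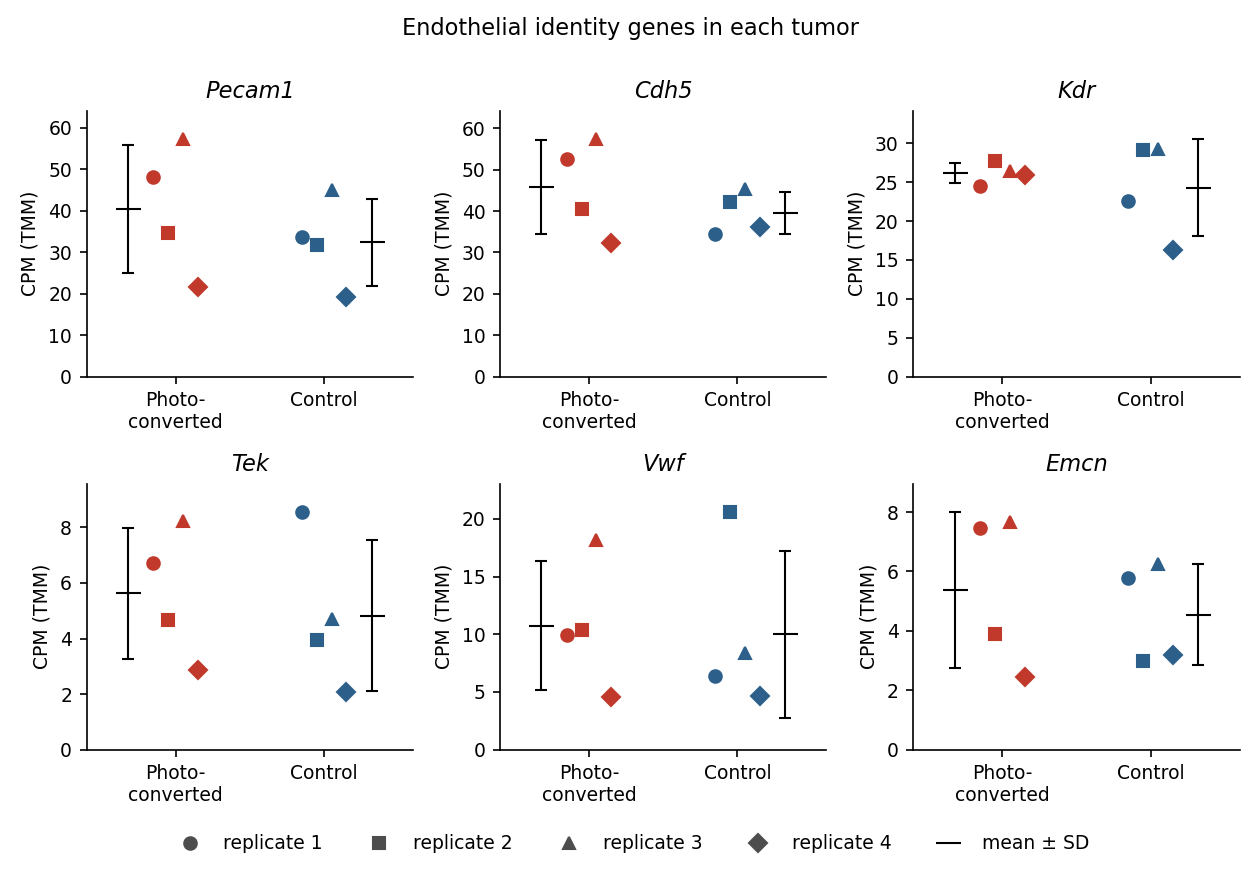
Level of the 6 endothelial identity genes in CPM (TMM-scaled, axes from 0) in each photoconverted and control tumor, with symbols for the replicate number and bars for mean ± SD (n = 4). The groups overlap in all 6 panels, and the tumors numbered 4 hold the lowest value of each panel.

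Much of the variation of the 10 genes lay between tumors of the same group. The lowest of the 8 tumors was photoconverted 4 or control 4 for 10 of 10 genes, and photoconverted 3 was among the 2 highest for 8 of 10. No gene of the set had groups without overlap, compared with 1.33% of all genes tested. Photoconverted 4, control 2 and control 4 were also the 3 tumors with an Rn45s share above 10%. Their mean level relative to that of the other 5 tumors was 0.280 for Sele, 0.324 for Selp, 0.452 for Tek, 0.463 for Emcn and 0.555 for Pecam1, against 0.733 to 1.01 for Vcam1, Cdh5, Kdr, Vwf and Icam1. Of the 10 genes, the selectins thus differed most between these classes of library, and only 1 of these 3 tumors was photoconverted. Among the 5 tumors below 10% Rn45s (3 photoconverted and 2 control), Sele had means of 3.92 and 1.13 CPM, Selp 8.72 and 2.89 CPM and Vwf 12.8 and 7.37 CPM, all without overlap, as for 14% of all genes in that direction. Vcam1 had means of 144 and 165 CPM, lower without overlap, as for 14.4% of all genes. In the edgeR fit of these 5 tumors, adjusted p was 0.396 for Sele and 0.306 for Selp.

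Markers of skeletal muscle varied with the selectins from tumor to tumor. All 6 of 6 muscle markers were measured and higher in photoconverted tumors (median log2 fold change 1.20), with 2 of them, Mb (myoglobin) and Tnnt3 (fast troponin T), at an unadjusted p under 0.05 in edgeR and 0 at an adjusted one. With the replicate block, 6 of 6 had an unadjusted p under 0.05 and 0 an adjusted one. Their summed level was 368, 593, 1224 and 141 CPM in photoconverted tumors 1 to 4 and 257, 290, 354 and 142 CPM in control tumors 1 to 4, and none was at 0. Photoconverted tumor 3 was highest for muscle markers as for both selectins. The tumors numbered 4 were lowest for muscle markers and for Selp. For Sele, control tumor 1 (0.485 CPM) lay between control tumor 4 (0.305 CPM) and photoconverted tumor 4 (0.547 CPM). With the muscle list score as a covariate, a fit added after the data were seen, the log2 fold change of Sele was 0.35 (SE 0.43) and that of Selp 0.02 (SE 0.32). In the same fit Vcam1 (-0.092), Pecam1 (-0.11), Cdh5 (-0.0041), Tek (-0.26), Vwf (-0.52) and Emcn (-0.23) turned sign. With both the muscle score and the replicate block, Sele had 1.44 (SE 0.63, unadjusted p = 0.0522, edgeR) and Selp 0.43 (SE 0.46, unadjusted p = 0.384, edgeR). In that fit Kdr had 0.51 (SE 0.21, unadjusted p = 0.0406, adjusted p = 1.00, edgeR).

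**Figure D5:**
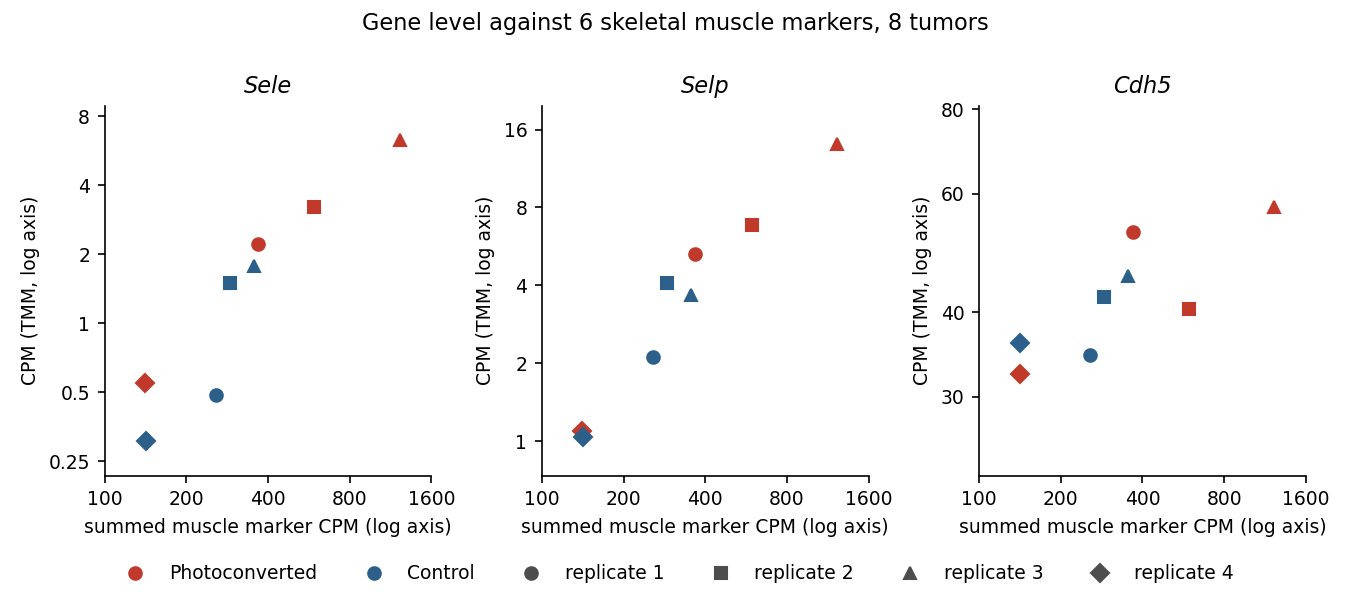
Level of Sele, Selp and Cdh5 (CPM, log axes) against the summed level of 6 skeletal muscle markers (CPM, log axis) in the 8 tumors, with red for photoconverted, blue for control and symbols for the replicate number. Selp is lowest in the 2 tumors numbered 4, at 141 and 142 muscle CPM. Sele is lowest in control tumor 4, followed by control tumor 1, at 257 muscle CPM, and then photoconverted tumor 4. Both selectins are highest in photoconverted tumor 3, at 1224 muscle CPM, while Cdh5 spans a narrower range.

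Neutrophil markers and several inflammatory genes were also higher in photoconverted tumors 1, 2 and 3. All 5 measured neutrophil markers of the 6 listed had an unadjusted p under 0.05 with and without the block (edgeR, 0 adjusted), led by the calprotectin genes S100a9 and S100a8 (log2 fold changes 2.53 and 2.62) and the chemokine receptor gene Cxcr2 (2.07). Their summed level was 57.9, 68.5, 104 and 18.3 CPM in photoconverted tumors and 27.6, 15.8, 20.9 and 17.5 CPM in control tumors, with photoconverted tumor 4 inside the control range. Of 19 inflammatory inducers and NF-kB genes tested (of 20 listed), 16 were higher and 3 lower with a median log2 fold change of 0.46. Among them, 5 had an unadjusted p under 0.05 in edgeR (10 with the block), all higher. Il6, a cytokine that activates endothelium, had 5.05, 4.83, 7.76 and 0.342 CPM in photoconverted tumors and 0.885, 0.214, 0.818 and 0.610 CPM in control tumors (log2 fold change 2.73, SE 0.73, unadjusted p = 0.00442, adjusted p = 0.999, edgeR). The neutrophil chemokine genes Cxcl1 and Cxcl2 had log2 fold changes of 1.10 (SE 0.36) and 2.04 (SE 0.69). The part of these cells and signals in the selectin values was not tested.

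Other genes of the endothelium showed no common direction between the groups. Of 25 further endothelial identity genes, 16 were higher and 9 lower with a median log2 fold change of 0.06, and 0 had an unadjusted p under 0.05. The lowest unadjusted p-values among them belonged to Ramp2, a co-receptor for adrenomedullin (log2 fold change -0.45, SE 0.22), the transcription factor gene Sox18 (-0.58, SE 0.37) and Flt1, the gene of VEGF receptor 1 (0.33, SE 0.21). With the block, Flt1 was higher and Ramp2 lower at an unadjusted p under 0.05. Of 3 venous genes that passed the filter on low counts, 2 were higher and 1 lower. Among them was Ackr1, a chemokine-binding receptor of venules (log2 fold change 0.75, SE 0.67). Of 4 arterial genes, 1 was higher and 3 lower, led by Gja4 (-0.41, SE 0.28). Of 4 lymphatic genes, 3 were higher, with Pdpn (podoplanin, also made by fibroblasts and keratinocytes) at 0.93 (SE 0.40, unadjusted p = 0.0440, edgeR).

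Angpt2 and Esm1, both tip cell genes of sprouting vessels, differed without overlap of the groups. Angpt2, whose product is a TIE2 ligand stored in Weibel-Palade bodies, had 9.26, 7.83, 10.4 and 7.11 CPM in photoconverted tumors and 6.97, 3.96, 6.61 and 4.46 CPM in control tumors. Esm1 (endocan) had 4.58, 4.42, 4.33 and 4.44 CPM in photoconverted tumors and 3.60, 2.68, 2.81 and 3.72 CPM in control tumors. Neither overlapped, and photoconverted tumor 4 was above every control tumor for both. The log2 fold changes were 0.64 (SE 0.23) for Angpt2 and 0.47 (SE 0.19) for Esm1, with exact permutation p = 0.0286 for each and adjusted p = 0.999 in edgeR. Groups without overlap in this direction were found for 2 of the 6 tip cell genes and 0.684% of all genes tested. Among 9 VEGF and angiopoietin ligands and co-receptors, which include Angpt2, 3 were higher and 6 lower (median log2 fold change -0.05). Thbd, the gene of thrombomodulin and 1 of 4 flow-responsive genes, had 16.7, 18.9, 26.9 and 8.27 CPM in photoconverted tumors and 10.2, 11.3, 7.64 and 5.86 CPM in control tumors (log2 fold change 1.02, SE 0.34, adjusted p = 0.999, edgeR), and was higher in 4 of 4 pairs. The other flow-responsive genes, Klf2, Klf4 and Nos3, lay between -0.19 and 0.23.

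Genes of the Weibel-Palade body other than Selp and Vwf showed no common direction, and platelet genes were scarce. Of 8 such Weibel-Palade body genes, 5 were higher and 3 lower with a median log2 fold change of 0.17, and Angpt2 alone had an unadjusted p under 0.05 in edgeR. Of 7 platelet markers only 3 passed the filter on low counts, and the platelet receptor genes Gp1ba, Gp9, Gp6 and Treml1 had 0 to 14 counts in each tumor. Ppbp, a platelet chemokine gene, had a log2 fold change of 1.59 (SE 0.54, unadjusted p = 0.0165, adjusted p = 0.999, edgeR) at no more than 1.98 CPM, and Pf4, another, had 0.17 (SE 0.41). The summed platelet level ranged from 15.5 to 31.2 CPM in photoconverted tumors and from 12.8 to 35.8 CPM in control tumors.

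On the leukocyte side, 6 of 14 genes of counter-receptors, the integrins and selectin ligands that meet these molecules, were higher and 8 lower, with a median log2 fold change of -0.14 and 0 at an unadjusted p under 0.05 in edgeR. Among those with the smallest p were Glg1, which encodes the E-selectin ligand ESL-1 (log2 fold change -0.22, SE 0.12), and Cd44 (0.33, SE 0.21). Of 10 junction and transmigration genes, 6 were higher and 4 lower, the 3 with the smallest p being Jam2 (0.44, SE 0.52), Cd47 (0.15, SE 0.19) and Mcam (0.10, SE 0.14). Of 9 pericyte and smooth muscle markers, 6 were higher and 3 lower, with Des (desmin, also a skeletal muscle protein) at 0.90 (SE 0.43) and Pdgfrb at -0.28 (SE 0.16).

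The genes most like each pattern over the 8 tumors were taken by Pearson's r of log2 CPM, as a description across tumors that also share depth and composition. For the mean of the 6 identity genes, the 10 closest were Timp3, Mmp12, Serpina3g, Map3k8, Fam46c, Samhd1, Cpxm1, Gbp4, Cxcl9 and Trabd2b, with r from 0.976 to 0.990. For Sele they were Dlc1 (0.99), Cyp26b1 (0.98) and Dmkn (0.98), and for Selp Dmkn (0.99), Eef1a2 (0.98) and Atp2a1 (0.98). Of these, Atp2a1 encodes the calcium pump of fast skeletal muscle. Like the selectins, the summed keratinocyte and adipocyte markers past the count filter were highest in photoconverted tumors 3 and 2. They reached 10.0 and 9.47 CPM for keratinocyte markers and 44.8 and 27.9 CPM for adipocyte markers. The part of these tissues in the selectin values was not tested. Icam1 was closest to Klhdc8b, Il12rb1 and H2-DMa (0.96 each), and Vcam1 to Med23 (0.99), Fam69a (0.97) and Tmem168 (0.97).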

How the data were processed

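Bulk RNA was sequenced from 8 tumors, 4 per group. Per the labels, the submitters' processing notes name CASAVA, FastQC, Trim Galore, HISAT2, featureCounts and DESeq2 with the build mm10, and versions, annotation and strand setting are not given in the sources used here. For library preparation, SMARTER appears in the labels and TruSeq in the paper. Raw counts for each gene symbol were deposited by the authors with a table of normalized values, a signal that equaled the deposited counts divided by size factors (0.416 to 1.77). Tumors were grouped, and replicates numbered, by their labels.

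Raw counts were tested with edgeR 4.0.16 in R 4.3.3 (TMM, filterByExpr by group, quasi-likelihood F-test, Benjamini-Hochberg adjustment over 14468 genes, threshold 0.05). Log2 CPM used a prior count of 2. Each gene was also tested by a two-sided exact permutation of the 8 tumors. Alternatives used DESeq2 1.42.0, limma 3.58.1 on log2 of the deposited normalized signal plus 1, other scaling and filters, covariates, and leaving out each tumor. The procedures were tested on simulated data. Exon lengths and positions came from GENCODE M21 (GRCm38), and promoters from RefSeq.

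The genes and lists were chosen with earlier results of these data known. The genes named were the 10 of the set, up to 3 of each list with the smallest p, and the genes closest by Pearson's r. F5, Icam4, Icam5, Klf4 and the untested platelet and keratinocyte genes were named besides. A gene that this rule would name is not reported here. Shared replicate numbers come from the labels, which state no pairing. Deviations from group means correlated between same-numbered tumors with r of 0.107 to 0.623, above 0.1 in each pair. Between different-numbered tumors r ran from -0.6 to 0.482. These ranges overlap and do not establish that the numbers mark pairs, so blocked values are given beside unblocked ones. No pair of libraries of a group were alike within sampling noise (smallest chi-square per degree of freedom 23.8). Nothing in the labels ties a tumor to a litter or processing batch. Precision is limited by depths of 12576615 to 35844417 counts per tumor.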

Additional observations from a re-analysis of the deposited data

How the results depend on the processing

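The counts of genes past an adjusted p of 0.05 (0 of 14468) moved to 24 (23 higher, 1 lower) with DESeq2's Wald test, to 42 (37 higher, 5 lower) in the 5 tumors below 10% Rn45s, and from 0 to 11 with a tumor left out (11 without photoconverted tumor 4, 0 for each of the other 7). None of the 10 genes passed in any fit, with adjusted p no lower than 0.396 for Sele and 0.306 for Selp. Sele did not pass a filter of 10 counts in every tumor and has no value there. With a tumor left out, log2 fold changes ran from 1.03 to 2.16 for Sele, 0.73 to 1.69 for Selp, 0.10 to 0.52 for Pecam1, 0.09 to 0.34 for Cdh5 and 0.02 to 0.45 for Emcn without a change of sign. Those of Icam1 (-0.14 to 0.065), Vcam1 (-0.090 to 0.17), Kdr (-0.044 to 0.21), Tek (-0.040 to 0.66) and Vwf (-0.23 to 0.73) changed sign. In the permutation test the mean log2 differences likewise ran from -0.14 to 0.060 for Icam1, -0.064 to 0.18 for Vcam1, -0.035 to 0.25 for Kdr, -0.052 to 0.61 for Tek, -0.12 to 0.61 for Vwf and -0.050 to 0.49 for Emcn.

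Signs also turned for Vcam1 with the Rn45s share as a covariate (-0.011) and, in the 5 tumors under 10% Rn45s, for Icam1 (0.081 in the fit and 0.078 in the permutation test), Vcam1 (-0.20 and -0.19) and Tek (-0.026). With the skeletal muscle score as a covariate, they turned for Vcam1 (-0.092), Pecam1 (-0.11), Cdh5 (-0.0041), Tek (-0.26), Vwf (-0.52) and Emcn (-0.23), and with the muscle score and the replicate block together for Vwf (-0.0023) and Emcn (-0.081). The cause of these turns was not tested. Over all alternatives, 176 log2 fold changes of the 10 genes kept their sign and 23 turned it.

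In the fit blocked by replicate number (replicate block), the count past the adjusted threshold stayed 0, no call changed, and 869 genes in place of 322 had an unadjusted p under 0.05. The blocked log2 fold changes were 1.62 for Sele and 1.16 for Selp, and the exact sign-flip permutation test of pairs can give no p below 0.125. Few reads limit Sele most, with 5 counts in control tumor 4 and 8 in photoconverted tumor 4. Where nothing says that numbered tumors are more than separate samples, p-values measure the spread between these samples only.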

Other observations

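Markers of other cells in the same tumors were counted as values. Of 5 adipocyte markers, the 4 that passed the filter on low counts all had a positive log2 fold change (photoconverted over control, median 1.04). Of these, 0 had an unadjusted p under 0.05 in edgeR, and 4 with the replicate block. Their summed level ran from 7.68 to 44.8 CPM in photoconverted tumors and from 2.63 to 19.9 CPM in control tumors. Of 5 keratinocyte markers, the 2 that passed the filter on low counts were higher, with Krt14 at a log2 fold change of 2.17 (SE 0.84). They stayed at or below 10.0 CPM in sum. Krt5, Krt1 and Lor did not pass. Krt5 had 6, 93, 86 and 0 counts in photoconverted tumors and 1, 4, 23 and 6 in control tumors. Krt1 had 1, 105, 57 and 0 against 0, 0, 3 and 0 counts, and Lor 0, 10, 25 and 0 against 0 counts in every control tumor. All 5 erythrocyte markers were higher (median 0.60), led by Alas2, the first enzyme of heme synthesis in red cells, at 2.27 (SE 0.84), while their summed level ran from 275 to 1760 CPM in photoconverted tumors and from 123 to 1809 CPM in control tumors. The hemoglobin genes Hba-a1 and Hba-a2 gave equal values and share near-identical sequence, so they are uncertain as separate genes.

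Of 6 macrophage markers, 2 were higher and 4 lower (median -0.09), all 4 measured T cell markers were lower (median -0.15), and of 5 fibroblast markers 3 were higher and 2 lower (median 0.02), none of them at an unadjusted p under 0.05 in edgeR. The summed fibroblast level reached 7336 CPM in a control tumor against at most 2204 CPM in photoconverted tumors. Of 5 epithelial markers, 2 passed the filter on low counts, Cdh1 and Krt8. They had log2 fold changes of 0.26 (SE 0.46) and 0.04 (SE 0.52) at no more than 4.42 CPM in sum.

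For outlying tumors, the 10 genes were examined in both groups, 20 groups of 4 values in all, and 0 held a tumor far enough from the others to stand out by Dixon's test, where chance would give about 1.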
